A study of Vitis vinifera with 156 samples.

Results

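The genes described here are the 100 whose transcripts climbed most between days 7 and 20 in grapevine buds held at a constant 22 °C while staying within a narrow band over the same days at 7 °C and at 2 °C. They were taken from a table of 42413 genes measured in bud libraries of 2 sets, of 86 and 70 libraries, and they were chosen by their measured change in 18 of these libraries. Their working name, genes climbing in warm buds only, goes further than the rule, which set limits at 7 and 2 °C and none at 11 °C. At 11 °C the change was above 0 in 75 of the 100 over the same days, with a median of 0.49. All genes as flat at 7 and 2 °C had a median of 0.41 there, and day 7 rested on 1 library of at least 500000 counts. From day 26 to day 69, 14 of the 100 rose at 11 °C, against 4.82% of all genes tested, a count that changed with the libraries. The 100 are therefore called below by the rule that chose them.

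The buds were endodormant buds of Vitis vinifera cv. Cabernet Sauvignon, a wine grape, on cuttings kept in growth chambers. Endodormancy is the state in which a bud does not grow even in favourable conditions because of signals within the bud itself. Chilling over weeks releases it, and over the same weeks low temperature raises the freezing tolerance of the bud, which is called cold acclimation. Buds kept warm get little of that chilling, so 22 °C served in this design as the warm arm against the cold ones.

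Buds were sampled before treatment, on 8 days from day 7 to day 69 at constant 2, 4, 7 or 11 °C, and on 7 days from day 7 to day 55 at 22 °C. Further buds spent the first 26 days at constant 2, 7 or 11 °C and then moved to a regime that fluctuated around a mean of 7 °C by 5 °C in each direction every day, and were sampled 4 times from day 34 to day 69. Each arm and day had up to 3 libraries, and all of them were Cabernet Sauvignon buds. The labels do not say whether replicates came from separate vines, so p-values measure the spread between these libraries only. The 3 libraries from before treatment carry the same sample number in their names and may be repeats of 1 sample. Library names begin with the word First or Second, and the sets are called so here. Constant 2, 7 and 11 °C, the libraries before treatment and 22 °C up to day 20 were in the First set. Constant 4 °C, the fluctuating arms and 22 °C from day 34 were in the Second, and 22 °C at day 26 was split between them. The sets and the late 22 °C samples therefore cannot be told apart from one another in any comparison of 22 °C before and after day 26. Library totals ran from 27485 to 7138863 counts with a median of 2228888, and 10 libraries held fewer than 500000.

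No gene identifiers accompany the lines of the table. Genes are called here by the number of their line, counted from 1 below the header, or by their rank among the 100, and no symbol, role, position or sequence is given. Because whole buds were measured, fewer cells of a type and less RNA per cell cannot be told apart in any result below. With no identities, genes that share reads with near-identical copies could not be marked, and their counts are uncertain.

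Levels are given as counts per 1000000 counts of the library (CPM), or as log2(CPM + 1). The rule used 18 libraries of the First set, 3 for each of 22, 7 and 2 °C at days 7 and 20, with totals of 816780 to 3213033 counts. A mean of at least 10 CPM over these libraries left 7000 genes. Of those, 4055 moved by less than 0.7 log2(CPM + 1) between the 2 days at 7 °C and at 2 °C, and these 4055 cold-flat genes are the pool from which the 100 were taken. In the pool as a whole the 22 °C change was centred near 0, with a median of 0.03, 2149 genes above 0 and 1906 below.

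Among the 100, the change at 22 °C ran from 2.04 for the first-ranked gene to 0.67 for the last, with a median of 0.78, and 8 genes had a change over 1. The median change was -0.04 at 7 °C and -0.19 at 2 °C. Since these values chose the genes, they are a description and support nothing. The edge of the list was not marked by a gap: the gene at rank 100 had 0.675, and the next 2 genes, just outside, had 0.672 and 0.671. In 61 of the 100 every 22 °C library of day 20 lay above every one of day 7, which was so for 4.94% of the 7000 genes and 5.5% of the pool, a difference that the rule itself makes. The median within-group standard deviation was 0.38, and 56 of the 100 changed by more than 2 of their own standard deviations. Mean levels of the 100 ran from 10.4 to 3813 CPM, with a median of 27.4. A change as large as that of the last member and a mean of at least 10 CPM were found in 210 genes. The 110 of them left out by the cold limits included 65 that also climbed past the limit at 7 or 2 °C and 53 that dropped past it there, with 8 in both groups.

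The mean log2(CPM + 1) over the 100 genes shows how the set moved as a whole. Before treatment the 3 libraries had 5.24, 4.93 and 4.93. At 22 °C the libraries of day 7 had 4.64, 4.65 and 4.54, those of day 13 had 5.67, 4.95 and 5.07, and those of day 20 had 5.34, 5.47 and 5.47. All 3 warm libraries of day 7 were thus below all 3 from before treatment, and those of day 20 above them. The climb was in part a return from a low point: 54 genes were below their level before treatment at day 7 and above it at day 20, 24 were below it on both days and 22 above it on both. The low point at day 7 was not a property of the 100. Their median difference from before treatment was -0.41, with 78 of the 100 below 0, and the pool of 4055 had a median of -0.32 with 76.1% below 0. At day 20 the 100 had a median of 0.34 with 76 above 0, while the pool was still at -0.30. Days 7 and 20 at 22 °C are the days the rule used, so these differences too are descriptions.

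**Figure D1:**
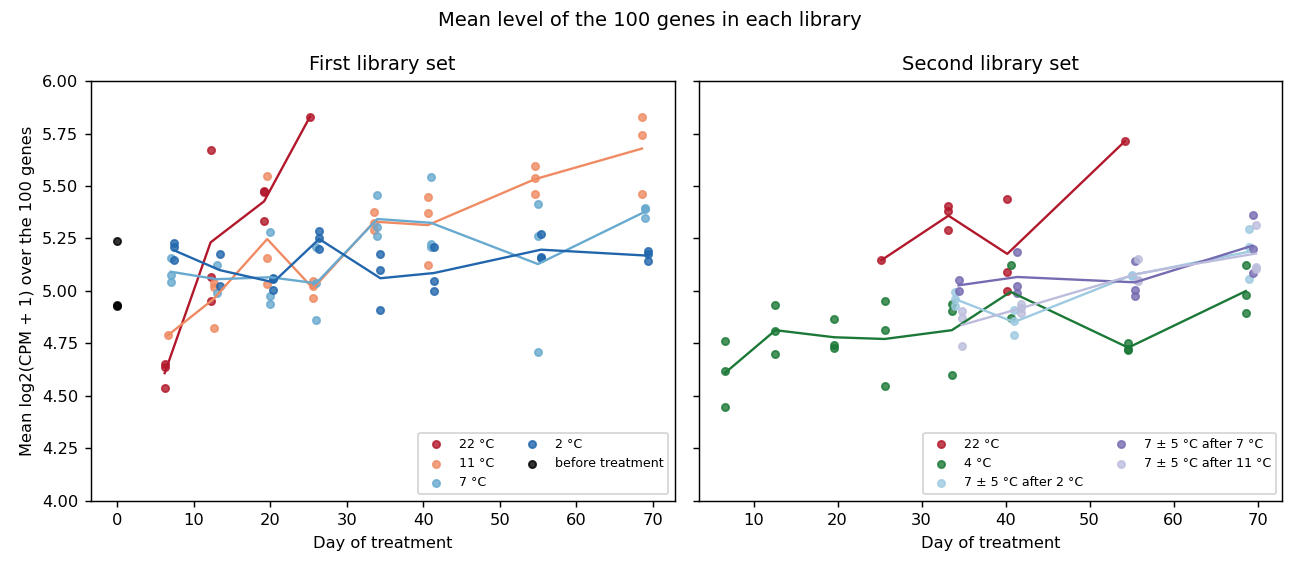
Mean log2(CPM + 1) over the 100 genes in each library of at least 500000 counts, by day of treatment and temperature, for the First and the Second library set. Points are libraries, shifted sideways by arm so that they do not overlap, and lines join the means of each day. At 22 °C the mean is 4.61 at day 7 and 5.43 at day 20, and at 11 °C it is 5.01 at day 26 and 5.68 at day 69.

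At 7 °C the same mean was 5.09 ± 0.06 at day 7 and 5.07 ± 0.19 at day 20 (SD, n = 3 libraries each). At 2 °C it was 5.19 ± 0.04 and 5.04 ± 0.03 (SD, n = 3 each), and every library of day 20 was below every one of day 7 there. The pool also went down there, from 5.44 ± 0.04 to 5.32 ± 0.02 (SD, n = 3 each). CPM has no TMM scaling. The TMM factors at 2 °C were 1.125 to 1.246 on day 7 and 0.944 to 1.033 on day 20, and a larger factor lowers a level more. At 22 °C the factors were 0.865 to 0.902 on day 7 and 0.769 to 0.918 on day 20. The rule let each gene move by up to 0.7 in the cold, and 66 of the 100 had a negative change at 2 °C and 52 at 7 °C. By the mean over the 100, the warm buds began below the cold ones and ended above them. The median difference of 22 °C from the mean of 2 and 7 °C was -0.57 at day 7, with 71 genes below 0, and 0.27 at day 20, with 69 genes above 0. The pool was lower in the warm as well. Its mean at 22, 2 and 7 °C was 5.13, 5.44 and 5.37 on day 7, and 5.13, 5.32 and 5.39 on day 20.

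Day 13 lies between the days of the rule, and its libraries were not used to choose the genes. At 22 °C the median gene had covered 73.7% of its climb by then. This share rested on 1 library: without replicate 1, which had the mean of 5.67, it was 50.3%. The level on day 13 was between those of days 7 and 20 in 65 genes, above day 20 in 30 and below day 7 in 5.

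Against the cold at day 13, the 100 genes went both ways. With edgeR's quasi-likelihood test and Benjamini-Hochberg adjustment over all 11465 genes tested, 16 of the 100 were higher at 22 °C than at 2 and 7 °C together, and 8 were lower. Over all genes 8.4% were higher and 6.04% lower, and over the pool 8.29% and 6.61%. The share higher among the 100 was above that of either background, and the share lower was close to it. The 16 differed by 0.92 to 2.93 on the log2 scale with a median of 1.38, and adjusted p ran from 0.000115 to 0.0495. The 8 lower genes differed by -3.18 to -1.17. Among these 8, the genes at ranks 46 and 81 did not exceed 4.59 and 5.56 CPM in any 22 °C library of the rule. They passed the limit of 10 CPM through their cold libraries, so their lower calls follow in part from that limit. The difference was above 0 in 65 of the 100, against 52.7% of all genes, with a median of 0.22 against 0.05. Without the libraries of replicate 3 the counts were 2 higher and 2 lower, against 1.36% and 1.12% of all genes, and without replicate 2 they were 8 and 1, against 3.37% and 1.4%. The 2 °C library of replicate 1 and the 7 °C library of replicate 3 held only 116585 and 50271 counts, and with both left out the counts were 11 higher and 7 lower, against 7.41% and 6.32%.

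Few of these genes stood apart from 11 °C at day 13. Of the 100, 2 were higher at 22 than at 11 °C, by 1.96 and 2.03 on the log2 scale (ranks 6 and 67), and 0 were lower by edgeR, where 0.314% of all genes were higher and 0.454% lower. DESeq2 called 5 higher and 1 lower, against 1.25% and 1.47% of all genes, and 11 and 6 of the 100 had an unadjusted p under 0.05 in edgeR. Without replicate 2, and without replicate 3, no gene of the 100 was called higher. Against buds from before treatment at day 13, edgeR called 0 of the 100 in either direction, while 0.14% of all genes were higher and 0.549% lower. Unadjusted p was under 0.05 for 18 higher and 4 lower genes, and DESeq2 called 2 higher, against 0.785% of all genes. The difference was above 0 in 70 of the 100 and in 47.2% of all genes, with medians of 0.38 and -0.05.

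At day 26 the First set held 2 libraries at 22 °C, one of them with 388575 counts. Here 5 of the 100 were higher than at 2 and 7 °C and 3 were lower, against 1.99% and 0.855% of the 12399 genes tested in edgeR. The 5, at ranks 1, 6, 35, 49 and 67, differed by 1.51 to 3.81 on the log2 scale, and the 3, at ranks 46, 61 and 82, by -2.53 to -1.49. Rank 46 passed the CPM limit through its cold libraries, as said above. These 8 genes, like the others given by rank below, are pointed out after their values were seen. Of the 5, 4 were among the 16 higher at day 13, and all 3 lower genes were among the 8 lower there. The share over all genes was not computed for this overlap, so it is a description. Without replicate 1, which left the shallow library as the lone one at 22 °C and assumes that it varies like the other groups, 0 genes were called. The lower genes were 1 without replicate 2 and 1 without replicate 3. Against 11 °C edgeR called 0 of the 100 at day 26 and 0.0403% of all genes higher, none lower. Unadjusted p was under 0.05 for 11 higher and 13 lower, and DESeq2 called 6 higher and 3 lower, against 1.27% and 2.47% of all genes.

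Later warm buds were compared with buds at constant 4 °C on days 34, 41 and 55, all in the Second set, at a temperature and in libraries that the rule did not use. With TMM scaling and all libraries, edgeR divided the 100 genes almost evenly there. Of them 17 were higher at 22 °C and 14 lower, where 16.6% of the 10714 genes tested were higher and 13.4% lower. In this fit the shares were close to those of all genes. In the pool, 10.3% were higher and 17.7% lower, so that beside the genes the 100 were taken from, the share higher was larger and the share lower smaller. The median difference of the 100 was -0.0040 on the log2 scale, against 0.04 over all genes and -0.15 in the pool, and 50 of the 100 were above 0. The 17 higher genes differed by 0.72 to 3.17 with a median of 1.52, and the 14 lower ones by -2.98 to -1.11 with a median of -1.59. Among the lower ones, ranks 3, 14 and 46 passed the limit of 10 CPM through their cold libraries, so their lower calls follow in part from that limit. At 22 °C rank 14 ran from 2.64 to 6.29 CPM on day 7 and from 5.885 to 15.64 CPM on day 20. Rank 7 was near the limit at 22 °C, at 3.96 to 8.24 and 11.94 to 13.91 CPM on these days.

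The split of these calls depended on the scaling. With RLE scaling 30 of the 100 were higher and 14 lower, against 21.9% and 11.1% of all genes and 15.1% and 14.7% of the pool. DESeq2 gave 32 and 14, against 20.5% and 9.38% of all genes and 17.7% and 17.4% of the pool. The share higher was thus above both backgrounds under these scalings. The median over all genes was then 0.21 and 0.35 in place of 0.04, and that of the 100 was 0.14 and 0.17. With the 3 libraries under 500000 counts left out, 26 were higher and 13 lower, against 15.6% and 12.8% of all genes and 11.3% and 16.4% of the pool. By log2(CPM + 1) in libraries of at least 500000 counts, the median difference of the 100 was 0.50 at day 34, 0.24 at day 41 and 0.92 at day 55. On these days 67, 62 and 84 of the 100 were above 0, with 1 library at 22 °C on day 55. The mean over the pool was 5.30, 5.37 and 5.42 at 22 °C, against 5.08, 5.23 and 4.80 at 4 °C.

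The libraries mattered as well. Without replicate 1 the counts were 14 higher and 8 lower, against 9.13% and 6.32% of all genes. Without replicate 3 they were 10 and 7, against 7.71% and 3.98%. Without replicate 2 they were 16 and 20, against 18.1% and 16.4%, and 37 of the 100 had a difference above 0 in place of 50.

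**Figure D2:**
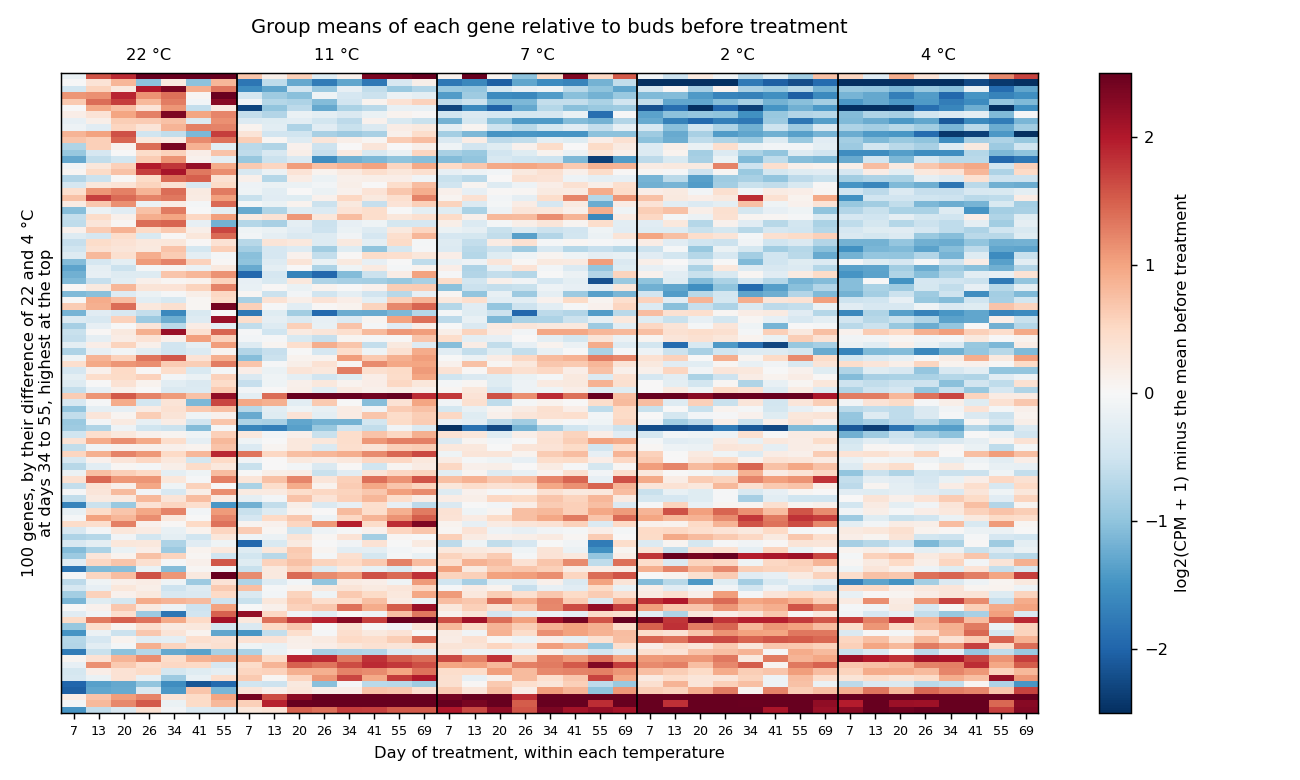
Mean log2(CPM + 1) of each of the 100 genes minus its mean before treatment, by temperature and day, from libraries of at least 500000 counts. Rows are genes, ordered by the edgeR difference of 22 and 4 °C at days 34 to 55 with the highest at the top, and red is above and blue below the level before treatment. Genes at the top are red at 22 °C and blue at 2 and 4 °C, those at the bottom are red in the cold arms, and most rows between are pale at every temperature.

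The comparison with the fluctuating arm after 7 °C over the same days shares its 22 °C libraries with the one just given. There 15 of the 100 were higher at 22 °C and 12 lower in edgeR, against 17.4% and 7.13% of the 10789 genes tested and 10.1% and 10.1% of the pool. The median of the 100 was -0.14 and that of all genes 0.21. RLE scaling gave 21 higher and 10 lower, against 21.1% and 6.1% of all genes and 13.9% and 8.94% of the pool. DESeq2 gave 26 and 13, against 21.3% and 6.26% of all genes and 17.2% and 12.7% of the pool. Without the libraries of replicate 3 the counts were 1 higher and 0 lower, against 0.878% and 0.29% of all genes, and without replicate 1 they were 7 and 5, against 6.51% and 2.36%. Without replicate 2 the balance turned, to 13 higher and 37 lower, against 19.4% and 20.6% of all genes and 7.94% and 35.3% of the pool.

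Day 13 in the First set and days 34 to 55 in the Second have no library in common, and the calls in one were met again in the other. Of the 16 genes higher at day 13, 9 were also higher later, which is 56.2% of the 16 and 52.9% of the 17. Of the 8 lower at day 13, 4 were also lower later, which is 50% of the 8 and 28.6% of the 14. No gene was called in opposite directions. Over all genes tested in both comparisons, 50% of those higher at day 13 and 56.6% of those lower were called the same way later. In the pool these shares were 40.6% and 61.3%. Recurrence of the day 13 calls was thus near that of temperature calls over all genes. Of the genes higher later, 27.5% of all and 32.9% of the pool were higher at day 13, below the 52.9% in the 100. Of those lower later, 25.6% and 22.7% were lower at day 13. The 100 can be sorted by these calls into 24 genes that were higher at 22 °C in at least 1 of the 2 comparisons, 18 that were lower in at least 1, and 58 called in neither.

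**Figure D3:**
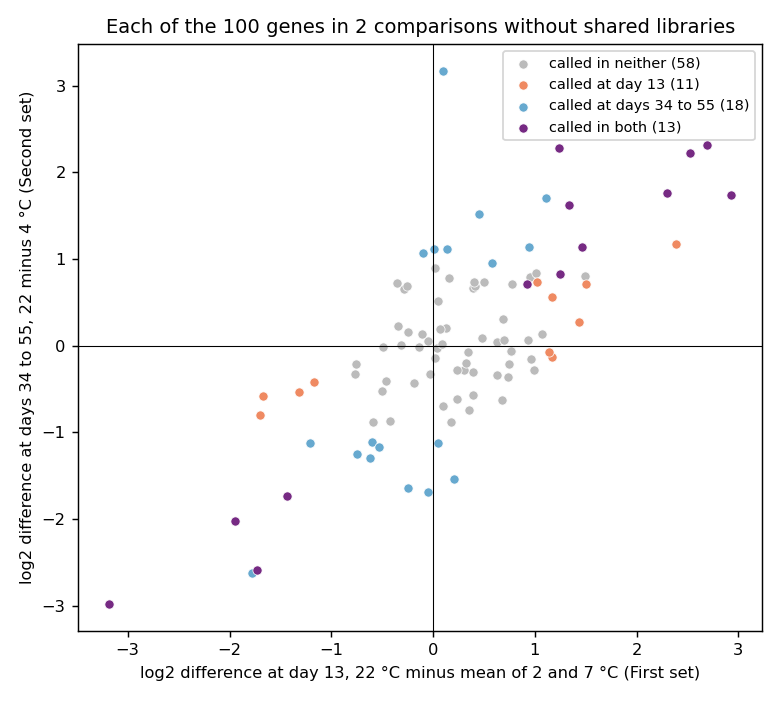
The edgeR log2 difference of each of the 100 genes at day 13 (22 °C minus the mean of 2 and 7 °C, horizontal axis) and at days 34 to 55 (22 minus 4 °C, vertical axis), coloured by the comparisons in which it was called. Of the 100, 41 lie above 0 on both axes and 26 below 0 on both, and the 13 called in both lie at the 2 ends of the cloud.

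The 3 groups had different levels, which follow in part from the calls that made them and are given with no test. The 24 warm-high genes had a mean of 6.54 ± 0.13 log2(CPM + 1) before treatment (SD, n = 3 libraries). At 22 °C they were at 6.51 ± 0.09 on day 7 and 7.36 ± 0.11 on day 20, and at 2 °C at 5.81 ± 0.11 and 5.63 ± 0.16 (SD, n = 3 each). They thus kept their starting level at first in the warm while they were lower in the cold, and the climb raised them further. The 18 cold-high genes began at 4.39 ± 0.40, were at 3.47 ± 0.14 on day 7 and 4.32 ± 0.05 on day 20 at 22 °C, and were at 5.63 ± 0.03 and 5.66 ± 0.13 at 2 °C (SD, n = 3 each). In these genes the climb in warm buds was a return to the starting level, and the cold level stayed above it. The 18 include ranks 3, 14, 46 and 81, which passed the limit of 10 CPM through their cold libraries, so the high cold level follows in part from that limit. The 58 others began at 4.61 ± 0.15, were at 4.17 ± 0.06 and 4.97 ± 0.09 at 22 °C, and at 4.80 ± 0.05 and 4.61 ± 0.06 at 2 °C (SD, n = 3 each).

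Over the 7 late libraries at 22 °C with at least 500000 counts, 65 of the 100 were within 0.7 log2(CPM + 1) of their day 20 mean, 15 were above and 20 below, with a median of -0.26. In the pool the median was 0.20, with 62.6% within this limit, 26.0% above and 11.4% below. The share within it was near that of the pool. These differences run across the library sets and have no test. Within the Second set, edgeR called 0 of the 97 genes tested for a trend over days 34 to 55 at 22 °C and 0 of the 9298 tested in all, with a lowest adjusted p of 0.866. Unadjusted p was under 0.05 for 2 rising and 2 falling genes, and DESeq2 also called 0. The fit held 9 libraries, 2 of the 3 at day 55 having 93075 and 333331 counts, and no trend was detected for any gene. Whether this reflects the depth, the few libraries or the absence of a trend was not tested. The median of the fitted change over these 21 days was 0.25 for the 100 and -0.08 for all genes, and its sign for the 100 depended on the libraries. It was 0.74 with both shallow libraries left out, with 75 of the 99 genes tested above 0, -0.29 without replicate 2, and -0.01 in the fit blocked on replicate number. The difference of the 22 and 4 °C trends was called for 0 of the 100 as well, with an adjusted p of 1, an unadjusted p under 0.05 for 1 gene, and 0 of the 100 by DESeq2. Its median over the 100 was -0.32, and 0.15 without the libraries under 500000 counts.

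The clearest later movement of these genes was at 11 °C. From day 26 to day 69, 14 of the 100 rose and 0 fell in edgeR, where 4.82% of the 10299 genes tested rose and 6.12% fell. In the pool 5.41% rose and 4.80% fell. The 14 rose by 0.92 to 2.16 on the log2 scale over the 43 days with a median of 1.35, 12 of them by at least 2-fold, and adjusted p ran from 0.00529 to 0.0484. The fitted change was above 0 in 76 of the 100, against 48.3% of all genes and 56.6% of the pool, and the medians were 0.51, -0.04 and 0.11. The number called changed with the libraries: 4 rose without replicate 1, 0 without replicate 2 and 4 without replicate 3, against 0.476%, 0.113% and 1.02% of all genes, each of which removes 5 of the 15 libraries. DESeq2 called 23, against 6.2%. None of these fits called a gene of the 100 as falling.

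The mean over the 100 at 11 °C was 5.01 ± 0.04 at day 26, 5.33 ± 0.04 at day 34, 5.31 ± 0.17 at day 41, 5.53 ± 0.07 at day 55 and 5.68 ± 0.19 log2(CPM + 1) at day 69 (SD, n = 3 libraries each). The 3 libraries of day 69, from 5.46 to 5.83, lay above those of day 26, from 4.96 to 5.05, with no overlap. Over the pool of 4055 the same mean was 5.20 ± 0.11 at day 26 and 5.48 ± 0.13 at day 69 (SD, n = 3 each). For the 14 genes alone it was 4.92 ± 0.30 at day 26 and 6.52 ± 0.32 at day 69 (SD, n = 3 each), and before treatment they were at 5.54 ± 0.14. Of the 14, 3 were among the 16 higher in the warm at day 13, 3 among the 17 higher at days 34 to 55, and 0 among the lower ones in either. Each 3 is 21.4% of the 14. Of all genes rising at 11 °C, 26.2% were higher at day 13 and 29.9% at days 34 to 55. In the pool these shares were 23.3% and 21.5%, so neither overlap was above background. Earlier, from day 7 to day 20, the change at 11 °C was above 0 in 75 of the 100 and over 0.7 in 41, with a median of 0.49. The pool had 33.7% over 0.7 and a median of 0.41, and only 1 library of at least 500000 counts stood for day 7, so this early change is near the background.

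**Figure D4:**
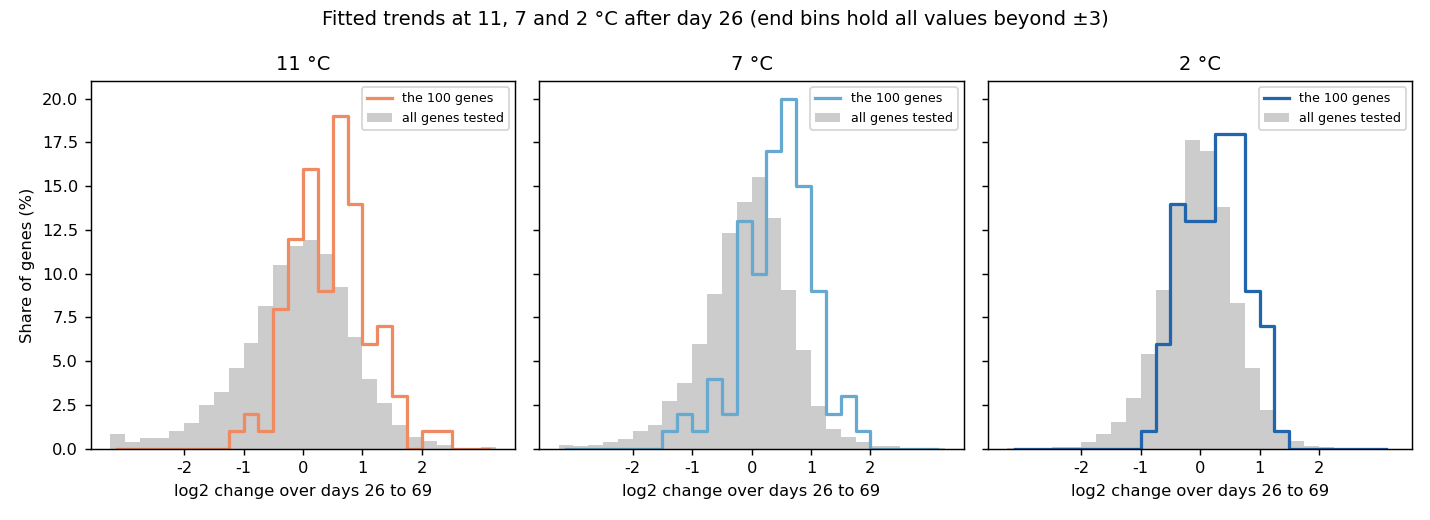
Share of genes by the log2 change fitted with edgeR over days 26 to 69 at constant 11, 7 and 2 °C, for the 100 genes (coloured line) and for all genes tested (grey bars). In each panel the 100 lie to the right of the genes at large, with medians of 0.51, 0.50 and 0.31 against -0.04, -0.03 and -0.03.

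In the edgeR fits the same shift to positive changes was seen in the colder buds, mostly without single genes passing the test. At 7 °C, 1 of the 100 rose and 0 fell, against 0.0766% and 0.153% of the 10443 genes tested in edgeR, and that gene, at rank 65, rose by 1.83 on the log2 scale with an adjusted p of 0.0389. Without any one replicate number it was no longer called. The fitted change at 7 °C was above 0 in 77 of the 100, against 48.4% of all genes and 58% of the pool. At 2 °C edgeR called 0 of the 100, against 0.336% of all genes rising and 0.267% falling. Unadjusted p was under 0.05 for 20 rising and 2 falling genes, and DESeq2 called 2 rising, against 1.32% of all genes. The fitted change was above 0 in 66 of the 100, against 47.8% of all genes and 52.9% of the pool. At 2 °C the mean log2(CPM + 1) of the 100, which has no TMM scaling, did not rise. It was 5.25 ± 0.04 at day 26 and 5.17 ± 0.02 at day 69 (SD, n = 3 each). The pool went from 5.48 ± 0.02 to 5.21 ± 0.12 between these days (SD, n = 3 each). The 3 temperatures share no library over these days. Of the 100 genes 51 had a fitted change above 0 at all 3, against 30.3% of the pool and 23.4% of all genes tested at all 3, and 10 had one above 0 at none.

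By day 69 the levels of the 100 relative to buds before treatment were in the order of the temperature. The median difference was 0.58 log2(CPM + 1) at 11 °C with 77 genes above 0, 0.33 at 7 °C with 66 above 0, and 0.14 at 2 °C with 58 above 0. In the pool the medians were 0.08, -0.03 and -0.21, in the same order. The mean over the 100 at day 69 was 5.68 ± 0.19 at 11 °C, 5.38 ± 0.03 at 7 °C and 5.17 ± 0.02 at 2 °C (SD, n = 3 each). No library of one of these groups overlapped with a library of another. In the fluctuating arms, all in the Second set, the mean went from 4.84 ± 0.09 at day 34 to 5.18 ± 0.12 at day 69 after 11 °C (SD, n = 3 each). After 2 °C it went from 4.96 ± 0.03 to 5.19 ± 0.12 (SD, n = 3 each), and after 7 °C from 5.03 ± 0.04 (SD, n = 2) to 5.22 ± 0.14 (SD, n = 3). At constant 4 °C, in the same set, it lay between 4.61 and 5.00 on all days. The pool in the arm after 11 °C was at 5.01 ± 0.11 on day 34 and 5.21 ± 0.05 on day 69 (SD, n = 3 each). These changes have no test.

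Genes chosen together for 1 contrast did not move closely together elsewhere. Over the 45 libraries at 2, 7 and 11 °C of days 26 to 69 the median correlation between pairs of the 100 was 0.11, against 0.06 between pairs in the pool. Over the 15 libraries at 11 °C it was 0.21 against 0.12, and over 23 libraries at 4 °C 0.10 against 0.13. Pairs share libraries and their depth, so these values are descriptions.

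How far the 100 differed among themselves is shown by 4 genes, those with the 2 highest and the 2 lowest differences of 22 and 4 °C at days 34 to 55 among members with a mean of at least 10 CPM there. Their late differences are given for that reason as a description of how they were picked, with the adjusted p of the fit over all genes.

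The gene on line 12652 had the largest climb of the rule. It stood at 10.5, 17.9 and 31.4 CPM before treatment. At 22 °C it was at 16.6, 20.0 and 12.3 CPM on day 7, at 105.2, 29.3 and 56.2 CPM on day 13, and at 37.2, 171.9 and 51.5 CPM on day 20. On day 26 it was at 212, 211 and 154.8 CPM, and on day 41 at 503, 108.8 and 2857 CPM. The warm libraries of day 26 were all above those of days 7 and 13, and the 3 of day 41 were spread widely. At days 34 to 55 its mean was 656 ± 989.7 CPM at 22 °C (SD, n = 7 libraries) and 27.4 ± 13.98 CPM at 4 °C (SD, n = 8), each of at least 500000 counts. The edgeR difference, over all 18 libraries, was 3.17 ± 0.51 (SE) on the log2 scale with an adjusted p of 0.000116, and it was 3.81 ± 0.52 with an adjusted p of 0.00304 against 2 and 7 °C at day 26.

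This gene was not flat in the cold between the days of the rule. At 7 °C it was at 10.3, 38.2 and 18.9 CPM on day 7 and at 24.3, 22.4 and 13.3 CPM on day 20, but on day 13 it was at 92.3 CPM in replicate 2, at 59.7 CPM in replicate 3, a library of 50271 counts, and higher still in replicate 1. The difference of 22 °C from 2 and 7 °C at day 13 was accordingly 0.10 ± 0.61 (SE, adjusted p = 0.946, edgeR). At 11 °C it was at 6.18, 11.6 and 40.7 CPM on day 26 and at 104.03, 131 and 134.7 CPM on day 69. That trend was 2.35 ± 0.79 over the 43 days with an adjusted p of 0.059 in edgeR, and it passed the threshold under 5 of 9 other settings. On day 69 the fluctuating arm after 11 °C had 537, 274 and 109.9 CPM and the one after 7 °C had 290.5, 59.8 and 141.8 CPM, in the range of warm buds.

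The gene on line 4873, at rank 27, was low in the cold, and in the warm it went both above and below its starting level. Before treatment it was at 22.4, 34.4 and 50.9 CPM, and at 22 °C at 18.9, 40.4 and 50.6 CPM on day 7, 43.2, 40.1 and 47.8 CPM on day 13, and 56.01, 75.7 and 54.2 CPM on day 20. Later at 22 °C its mean was 18.99 ± 14.5 CPM on day 26 (SD, n = 2) and 40.3 ± 6.80 CPM on day 34 (SD, n = 3). It was 17.9 ± 9.97 CPM on day 41 (SD, n = 3) and 61.3 CPM in 1 library on day 55. At 2 °C it was at 4.17, 3.04 and 1.22 CPM already on day 7, from 4, 3 and 1 counts, and at 5.88, 5.28 and 2.28 CPM on day 20. All its 22 °C libraries of days 7 to 20 were above all its 2 °C libraries of days 7 and 20. The edgeR difference at day 13 was 2.70 ± 0.50 (SE, adjusted p = 0.00164), and it was lost under 2 of 9 other settings. At days 34 to 55 it was at 33.7 ± 17.97 CPM at 22 °C (SD, n = 7) and 4.49 ± 2.92 CPM at 4 °C (SD, n = 8), a difference of 2.32 ± 0.49 (SE, adjusted p = 0.00145, edgeR). It was also one of the 14 that rose at 11 °C, by 1.68 ± 0.50 (SE, adjusted p = 0.0395, edgeR), from 6.18, 10.4 and 13.2 CPM on day 26 to 64.5, 27.1 and 30.3 CPM on day 69. That call was lost under 3 of 9 other settings.

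The gene on line 10931, at rank 5, climbed in warm buds and was yet far higher in the cold. Before treatment it was at 47.7, 8.95 and 19.5 CPM, a wide spread. At 22 °C it was at 11.5, 3.53 and 7.04 CPM on day 7 and at 13.3, 15.6 and 18.4 CPM on day 20. At 2 °C it was at 108.4, 178 and 213 CPM on day 7 and at 176, 157.9 and 178 CPM on day 20, and at 7 °C it ran from 62.3 to 135.4 CPM on these days. Every cold library of these days was above every warm one. At day 13 the edgeR difference was -3.18 ± 0.51 (SE, adjusted p = 0.000553). At days 34 to 55 the means were 19.7 ± 11.4 CPM at 22 °C (SD, n = 7) and 144.4 ± 83.8 CPM at 4 °C (SD, n = 8), and the difference was -2.98 ± 0.46 (SE, adjusted p = 7.15e-05, edgeR).

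The gene on line 38036, at rank 22, had the same form. At 22 °C it was at 24.4, 31.4 and 18.9 CPM on day 7 and at 63.4, 43.7 and 34.1 CPM on day 20, around a level before treatment of 33.4, 26.9 and 10.8 CPM. At 2 °C it was at 205, 152.2 and 127.3 CPM on day 7 and at 217, 146 and 173 CPM on day 20, with no overlap with the warm libraries. The edgeR difference was -1.74 ± 0.37 (SE, adjusted p = 0.00411) at day 13 and -2.59 ± 0.49 (SE, adjusted p = 0.000561) at days 34 to 55, where the means were 42.1 ± 43.6 CPM at 22 °C (SD, n = 7) and 206 ± 39.8 CPM at 4 °C (SD, n = 8).

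**Figure D5:**
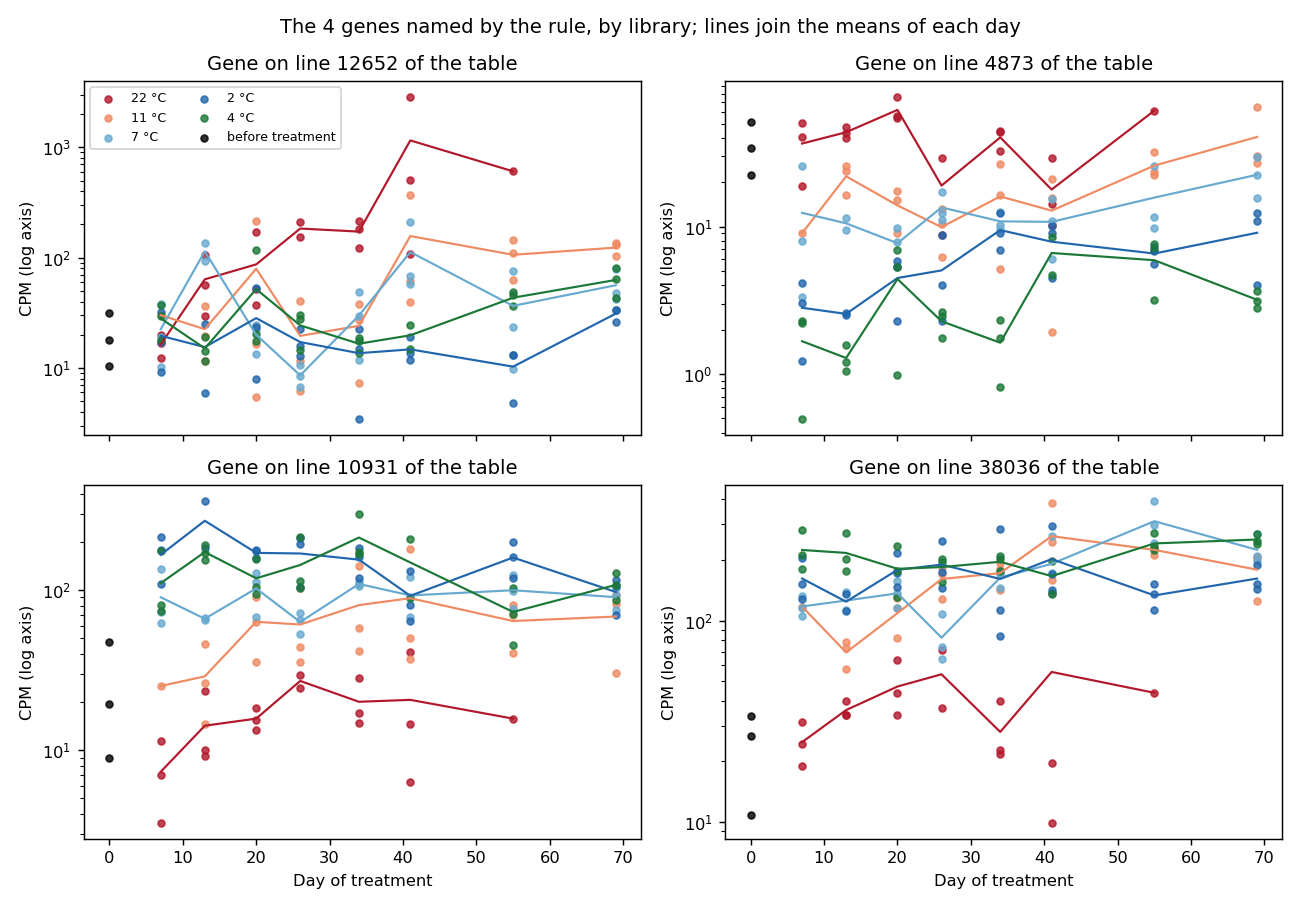
CPM of the 4 named genes in each library of at least 500000 counts, on a log axis, by day and temperature. Points are libraries and lines join the means of each day. The genes on lines 12652 and 4873 are highest at 22 °C late in the series, and the means of those on lines 10931 and 38036 are lowest at 22 °C on every day sampled there.

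The genes at ranks 2 and 3 were unlike the first-ranked gene. Ranks 1 to 50 held 8 of the 16 higher and 4 of the 8 lower genes of day 13. At days 34 to 55 against 4 °C they held 11 of the 17 higher and 10 of the 14 lower genes. The gene at rank 2 was at 9.99, 9.02 and 6.60 CPM on day 7 and at 18.4, 27.3 and 23.99 CPM on day 20 at 22 °C, with no overlap, and was called in neither of the 2 temperature comparisons. It was at 0.530, 33.9 and 2.48 CPM in the 3 warm libraries of day 41, so that replicates of 1 group differed more than the days of the rule. The gene at rank 3 climbed at 22 °C from 0.370, 0.392 and 2.20 CPM, which are 1, 1 and 5 counts, to 4.13, 2.94 and 3.13 CPM, and passed the limit of 10 CPM through its cold libraries. At 2 °C it was at 20.9, 17.3 and 18.4 CPM on day 7, above each of these warm values.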

How the data were processed

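Whole-number counts of reads per gene were deposited by the authors for each library, with no normalization. Per the labels' protocols, total RNA was made into QuantSeq 3′ libraries, which give reads near the 3′ end of a transcript, so longer transcripts do not gain reads by their length. The submitters' processing notes name FastQC, STAR and DESeq2. The genome build, the annotation and the counting tool are not given in the sources used here. Every column matched 1 library, and 0 columns were unused.

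Groups came from the labels. CPM is a count divided by the library total, times 1000000, and the pseudocount on the log2 scale was 1. Levels, and the rule, used libraries of at least 500000 counts, and the tests used all libraries of the groups compared. Tests were made with edgeR 4.0.16 (R 4.3.3) on counts as deposited, through filterByExpr, TMM scaling, estimateDisp, glmQLFit and glmQLFTest. Each was fitted on the whole table, with p-values adjusted by the Benjamini-Hochberg method over all genes tested and a call at an adjusted p under 0.05. The standard error of a log2 difference was its size divided by the square root of F. A trend is the slope per day times the days spanned. The steps were tested on simulated data. Alternatives were RLE scaling, DESeq2 1.42.0, no filter, depth minimums, the replicate number as a block, and leaving out each replicate.

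The members and lists were chosen with earlier results of these data known. The rule for named genes took, among members with a mean of at least 10 CPM over the libraries concerned, the 2 highest and 2 lowest differences of 22 and 4 °C at days 34 to 55. The depth minimum of 500000 counts for the tests was added after seeing the data. Precision rests on depth: 1 count is about 1 CPM in a library of 1000000 counts, and shallower libraries are coarser.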

Additional observations from a re-analysis of the deposited data

How the results depend on the processing

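Of the 100 genes, the rule kept 86 with TMM library sizes, 91 with a pseudocount of 0.5, 62 and 66 with a mean CPM of at least 5 and 20, 70 and 67 with cold limits of 0.5 and 1.0, and 25 to 40 when 1 replicate number was left out. A minimum of 1000000 counts left the rule no library at 2 °C on day 7. None of the calls for the 4 named genes changed sign, and the trend medians that did are given above. At day 13, 22 against 11 °C, the members higher were 5 with DESeq2, 5 with no filter and 1 with at least 1000000 counts, and those lower 1 with DESeq2 and 1 with at least 500000. Over all genes 1.25%, 0.497% and 0.0903% were higher, in the same order, and 1.47% were lower with DESeq2. Against pretreatment DESeq2 called 2 higher and no filter 1, where 0.785% and 0.308% of all genes were higher. At day 26 no filter gave 9 higher and 5 lower against 2 and 7 °C, where 2.68% and 1.42% of all genes were called. Against 11 °C at day 26 DESeq2 gave 6 higher and 3 lower, no filter 5 and 1, each depth minimum 1 and 1, and the replicate block 1 higher. Over all genes DESeq2 called 1.27% and 2.47%, and no filter 1.01% and 0.78%. The minimum of 1000000 counts called 0.207% and 0.295%, and the block 0.0887% higher. For 22 against 4 °C at days 34 to 55, RLE scaling gave 30 higher, DESeq2 32 and a minimum of 500000 counts 26. Against the fluctuating arm DESeq2 gave 26 higher. DESeq2 called 23 rising at 11 °C, 3 rising and 1 falling at 7 °C, and 2 rising at 2 °C. Over all genes it called 6.2% rising at 11 °C, 0.522% rising and 0.821% falling at 7 °C, and 1.32% rising at 2 °C. The causes were not tested. Leaving out 1 replicate number gave 2 to 16 higher and 1 to 5 lower at day 13 against 2 and 7 °C, 0 to 2 higher against 11 °C, 0 to 5 higher and 0 to 1 lower at day 26 against 2 and 7 °C, and 0 to 1 in either direction against 11 °C. It gave 10 to 16 higher and 7 to 20 lower against 4 °C, 1 to 13 higher and 0 to 37 lower against the fluctuating arm, and 0 to 4 rising at 11 °C and 0 to 0 at 7 °C. Fewer libraries entered each of these fits.

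On average same-numbered libraries did not deviate together, with mean correlations of -0.064 to 0.085 over the fits and single pairs from -0.634 to 0.61. The main fits have no term for the number. With groups of up to 3 libraries, these correlations cannot exclude a pairing. With the replicate number as a block, 20 genes rose at 11 °C and 0 at 7 °C, against 6.16% and 0.0348% of all genes. The counts for 22 against 4 °C were 17 higher and 17 lower, against 18.6% and 15.1% of all genes and 9.92% and 21.8% of the pool. Those against the fluctuating arm turned from 15 and 12 to 12 and 17. Both backgrounds moved the same way. All genes went from 17.4% and 7.13% to 15.3% and 12%, and the pool from 10.1% and 10.1% to 6.59% and 19.6%. The block also changed the filter on low counts, with 12092 genes tested against the fluctuating arm in place of 10789. With no filter and no block the counts there were 12 and 13, against 11.3% and 5.97% of all genes and 5.18% and 15.8% of the pool. The turn therefore cannot be credited to the block alone.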
